A study of Mus musculus with 4 samples.

Results

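The 8 genes described here control plasminogen activation and the start and braking of blood clotting. They were taken by symbol from the 31053 features of the deposited matrices: Plat, Plau, Plaur, Serpine2, Thbd, Procr, F3 and Tfpi. All 8 were found, and none overlaps another gene in GENCODE release M21 (GRCm38, mm10). Plasminogen is cut to plasmin, the enzyme that dissolves fibrin, by tissue plasminogen activator (Plat) or by urokinase (Plau), which works at the cell surface when held by its receptor (Plaur). Protease nexin 1 (Serpine2) inhibits thrombin and both activators. Clotting starts when blood meets tissue factor (F3), and tissue factor pathway inhibitor (Tfpi) blocks that first complex. On the vessel wall, thrombomodulin (Thbd) turns thrombin toward activating protein C, and the endothelial protein C receptor (Procr) presents protein C to it.

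Non-parenchymal liver cells came from mice labelled as carrying Col1a2-CreERT2, a tamoxifen-inducible Cre under a collagen gene promoter, and an R26RtdTomato reporter, with the number after the first R written as 26, 27, 28 and 29 in the 4 samples. Fatty liver injury was made over 8 weeks by feeding 45% fat without methionine or choline, with 0.1% L-methionine in the water. The groups were reporter-positive and reporter-negative cells of injured mice and of mice in recovery, with 1 library each, so no difference has a replicate check and no test was run. Only the 5311 barcodes of the positive injury library were used, and gene counts came from the other 3 libraries. Sources used here do not give the number of mice per library, their age, the agent that induced the Cre or the length of recovery. Because the fractions and stages are 1 library each, a difference between libraries cannot be told apart from a difference between preparations or mice.

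The libraries, taken throughout in the order positive recovery, negative recovery, negative injury, held 33442403, 27816768 and 49993127 unique molecular identifiers (UMIs), and 2488, 2955 and 5448 cells passed the filter, with medians of 11278, 8673 and 6857 UMIs per cell. Cells were gated by 2 marker genes each: mesothelial by Upk3b and Nkain4, endothelial by Kdr and Ptprb, stellate by Lrat and Reln, bile duct by Epcam and Spp1, and leukocyte by Ptprc and Tyrobp. Mesothelial cells line the liver surface, and stellate cells are pericytes of the sinusoids that store vitamin A. By library there were 1292, 68 and 259 mesothelial, 147, 2279 and 3567 endothelial, 143, 5 and 37 stellate, 24, 394 and 1035 duct, and 81, 2 and 1 leukocyte cells. Groups under 30 cells were not compared. Markers outside the gate pairs matched the gate names: 7 mesothelial markers summed to between 3942 and 4541 UMIs per 1000000 UMIs (CPM) in the 3 mesothelial groups and to at most 195.7 CPM in the endothelial, stellate and duct groups compared. The same sum for 7 sinusoidal endothelial markers was between 9291 and 12100 CPM in the endothelial groups and at most 838.2 CPM in the mesothelial, stellate and duct groups compared. The 7 duct markers reached 3218 to 3229 CPM in duct cells of the negative libraries, and 586.6 to 838.1 CPM in mesothelial cells. Libraries shared between 3 and 9 barcodes by pair, and among the 3 libraries analysed 0 of the shared barcodes had identical counts. The reporter transcript was not among the features, so the fractions stand as labelled. In GENCODE M21 (mm10) Plat lies at chr8:22757727-22782844 on the plus strand, Plau at chr14:20836660-20843385 (plus), Plaur at chr7:24462484-24475968 (plus), Serpine2 at chr1:79794197-79861180 (minus), Thbd at chr2:148404466-148408188 (minus), Procr at chr2:155751117-155755471 (plus), F3 at chr3:121723537-121735048 (plus) and Tfpi at chr2:84432855-84476775 (minus).

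RefSeq start-site windows of 300 bases (250 before the start and 50 after, GRCm38.p6) were found for 5 of the 8 genes, and not for Plat, Plau and Thbd. They are shown for Plaur and Procr, whose levels in endothelial cells were 2.64-fold or more above recovery at injury, and for F3, which had the opposite direction in mesothelial cells. Capitals mark matches to TGANTCA, an AP-1 motif that reads the same on both strands and that was chosen with the results in view. The windows lie at chr7:24462233-24462532 (plus strand, Plaur), chr2:155750967-155751266 (plus strand, Procr) and chr3:121723287-121723586 (plus strand, F3).
Plaur: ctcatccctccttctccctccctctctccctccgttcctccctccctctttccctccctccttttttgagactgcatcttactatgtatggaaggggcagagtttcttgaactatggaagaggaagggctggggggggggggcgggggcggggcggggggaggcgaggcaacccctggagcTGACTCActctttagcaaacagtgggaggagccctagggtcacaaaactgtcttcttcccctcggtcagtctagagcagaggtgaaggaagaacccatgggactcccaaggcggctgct
Procr: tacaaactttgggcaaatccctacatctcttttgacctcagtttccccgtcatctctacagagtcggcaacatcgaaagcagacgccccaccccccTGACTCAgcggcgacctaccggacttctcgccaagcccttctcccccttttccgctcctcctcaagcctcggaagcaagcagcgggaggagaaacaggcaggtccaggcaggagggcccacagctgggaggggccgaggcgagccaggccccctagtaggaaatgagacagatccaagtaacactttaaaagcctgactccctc
F3: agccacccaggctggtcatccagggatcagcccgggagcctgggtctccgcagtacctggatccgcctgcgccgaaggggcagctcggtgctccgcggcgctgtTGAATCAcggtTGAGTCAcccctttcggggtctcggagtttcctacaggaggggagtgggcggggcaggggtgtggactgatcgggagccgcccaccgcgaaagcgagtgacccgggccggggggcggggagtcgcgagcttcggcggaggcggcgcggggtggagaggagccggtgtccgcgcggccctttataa

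Each of these 3 windows held TGANTCA, once in Plaur (TGACTCA) and Procr (TGACTCA) and at 2 places in F3 (TGAATCA and TGAGTCA). Of all 32851 windows of this length 7.81% held it. That share is no test of the 3 windows, since both the motif and the windows shown were chosen with the results in view. The windows of Serpine2 and Tfpi did not hold these letters. GGGCGG, the GC box, overlaps none of these matches. On either strand it lay in the windows of Plaur, F3, Serpine2 and Tfpi, and in 35.7% of all windows. A match describes the letters only, since binding was not measured here.

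Levels below are CPM of summed UMIs, with an exact Poisson 95% interval in brackets that covers counting error only. A gene is called higher or lower when the log2 ratio of the 2 levels, after 10 CPM was added to both, is at least 1 (2-fold). Folds are plain ratios of CPM with an exact 95% interval of the same kind. Counts come from the 3' end of transcripts, so levels are compared within a gene and not between genes.

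Between the fractions in recovery, the sums over all cells differed for 4 of the 8 genes. Plat was 95.9 CPM (92.6 to 99.3) in the positive and 6.30 CPM (5.40 to 7.32) in the negative library, a ratio of 15.2 (13.1 to 17.9). Serpine2 was 23.5 CPM (21.8 to 25.2) and 1.39 CPM (0.985 to 1.91), a ratio of 16.8 (12.2 to 24.0). An activator and an inhibitor of plasminogen activation were thus higher in the positive library, while Tfpi and Thbd were lower. Tfpi was 71.9 CPM (69.0 to 74.8) against 211.1 CPM (205.6 to 216.6), and Thbd 102.6 CPM (99.2 to 106.1) against 222.1 CPM (216.5 to 227.8). Their log2 ratios were -1.43 and -1.04, and with TMM scaling Thbd stood at -0.89, inside the 2-fold limit. F3 (75.6 against 35.2 CPM), Procr (19.3 against 8.10 CPM), Plaur (17.5 against 12 CPM) and Plau (1.51 against 2.24 CPM) did not pass 2-fold. F3 had a log2 ratio of 0.92, and passed at 1.05 with TMM scaling, 1.08 with 1 CPM added, 1.26 on thinning and 1.45 without the deepest 5% of cells. Procr passed at 1.16 with 1 CPM added. Of all features at 10 CPM or more, 8.48% were higher and 10.5% lower. The libraries differ in their cells: mesothelial cells were 51.9% of cells in the positive library, and endothelial cells 77.1% of cells in the negative one. They supplied 68.8% and 71.0% of the UMIs of these libraries. A sum over a library does not separate more cells of a type from more RNA per cell, so the gates below carry the comparison.

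**Figure D1:**
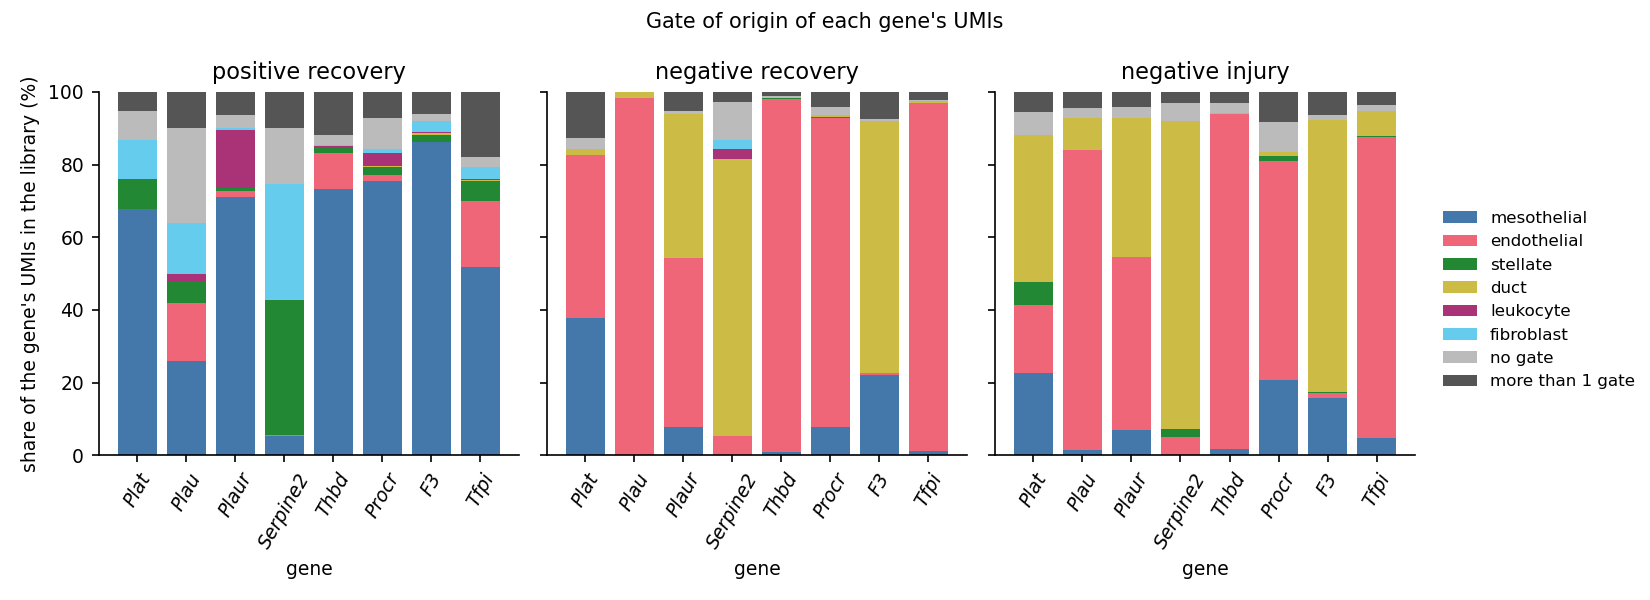
Share of each gene's UMIs (%) by gate of origin, in stacked bars with 1 panel per library. Fibroblast marks cells outside the gates with Dpt and Mfap4. In the positive library mesothelial cells supplied 73.3% of Thbd UMIs and held 68.8% of all UMIs. In the negative libraries endothelial cells supplied 97.4% (recovery) and 92.3% (injury) of Thbd UMIs and held 71.0% and 45.9% of all UMIs.

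The gates showed which cells supplied the UMIs of each gene. In the positive recovery library, mesothelial cells, which held 68.8% of all UMIs, gave 86.3% of F3, 75.6% of Procr, 73.3% of Thbd, 71.0% of Plaur and 67.7% of Plat UMIs. Tfpi was below that share, with 51.8% of its UMIs in mesothelial and 18.3% in endothelial cells, which held 3.87% of all UMIs. Plau had 26% of its 50 UMIs in mesothelial cells. Serpine2 was lowest: 5.28% of its UMIs lay in mesothelial cells and 37.3% in stellate cells. Another 31.5% lay in 100 cells with Dpt and Mfap4, genes of fibroblast matrix, a group added after the levels were seen. Cells in no gate gave 15.3% of Serpine2 UMIs, and cells in more than 1 gate 10.0%. Stellate cells and those 100 cells held 5.52% and 3.56% of all UMIs. In the negative libraries, endothelial cells held 71.0% (recovery) and 45.9% (injury) of all UMIs and gave 95.9% and 82.8% of Tfpi UMIs. Duct cells held 19.6% and 32.7% of all UMIs. They gave 69.4% and 75.0% of F3 UMIs and 76.3% and 84.8% of Serpine2 UMIs, from totals of 38 and 224 Serpine2 UMIs. Plat in the negative fraction was split between cell types, with 44.8% endothelial and 37.8% mesothelial in recovery, and 40.5% duct at injury. In recovery mesothelial cells held 4.49% of all UMIs, and the endothelial share of Plat was below that gate's 71.0% of all UMIs.

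**Figure D2:**
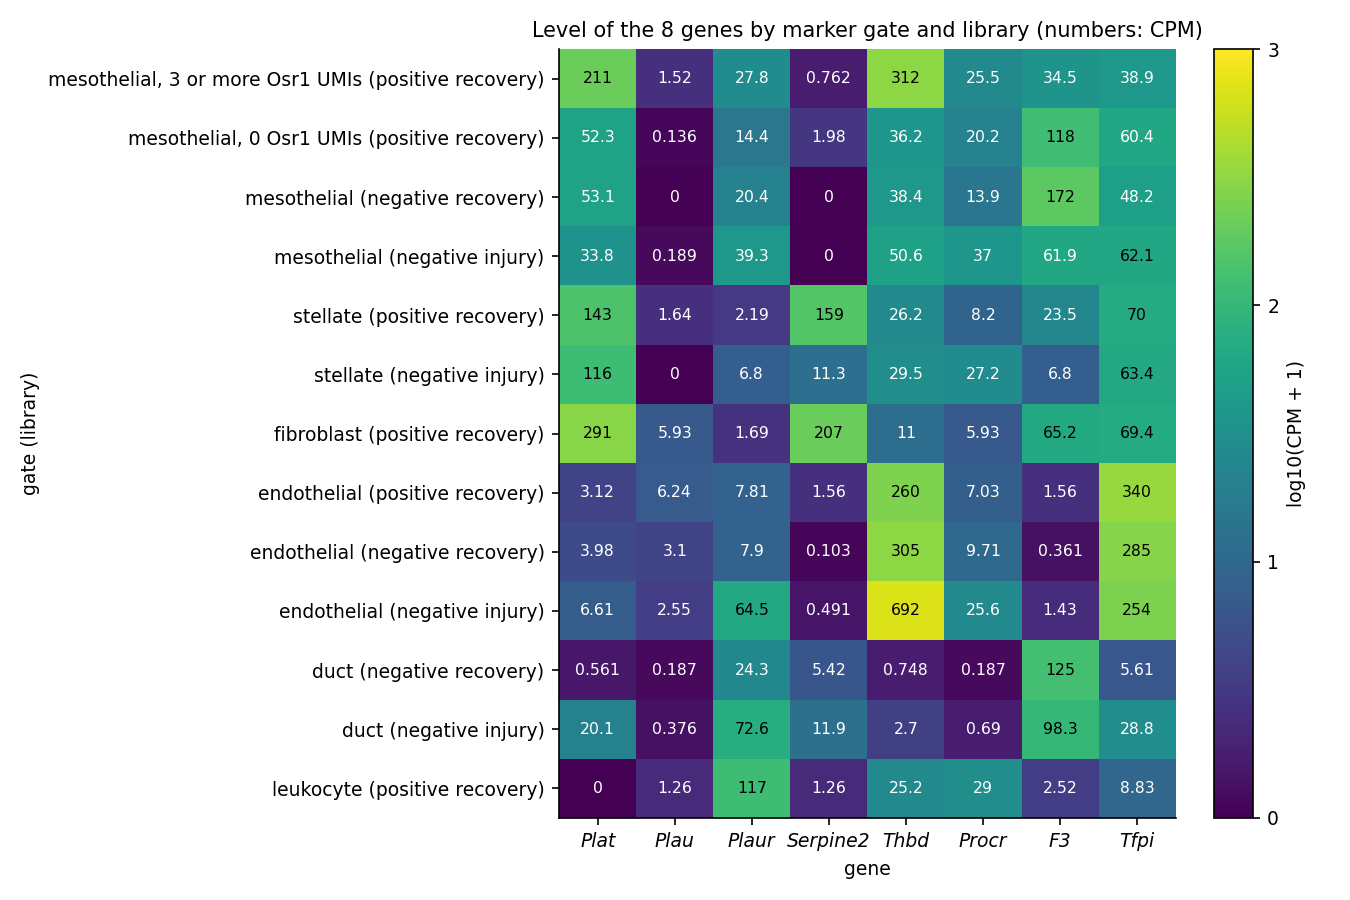
Level of the 8 genes (columns) in each gate and library (rows), with the number giving CPM and the colour log10 of CPM plus 1; read down a column, not across genes. Fibroblast is the Dpt and Mfap4 group. F3 is at 1.56 CPM or less in the 3 endothelial rows, and Thbd and Tfpi are at or above 253.7 CPM there.

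Among the plasminogen activators, Plat had its highest levels in mesenchymal groups and in part of the mesothelial cells. Its order ran from the Dpt and Mfap4 cells at 291.3 CPM (261.4 to 323.8), through mesothelial cells with 3 or more UMIs of the transcription factor Osr1 (210.9) and stellate cells of the positive recovery and negative injury libraries (142.7 and 115.5, overlapping intervals), to other mesothelial cells at 33.8 to 53.1 CPM. Cells of the positive library in no gate, other than the Dpt and Mfap4 cells, were at 160.1 CPM (141.1 to 181.0) and were not placed in the order. Duct cells were at 20.1 CPM at injury and 0.561 CPM in recovery. Endothelial cells were at 3.12 to 6.61 CPM as a whole. Those with 2 or more Vwf UMIs, described below, were at 27.8 CPM (negative recovery) and 49.7 CPM (negative injury). The 81 leukocytes had 0 Plat UMIs, which allows up to 3.79 CPM (3 counts). Plau had few UMIs in every library (50, 61 and 69). It was ordered over the gates of at least 30 cells and the Dpt and Mfap4 cells. Its highest value there was 6.24 CPM (2.70 to 12.3, from 8 UMIs), in endothelial cells of the positive library. That interval overlapped the one of the Dpt and Mfap4 cells (5.93 CPM, 2.38 to 12.2). Cells of the positive library in no gate were at 8.16 CPM (4.35 to 14.0). Endothelial cells held 60 of the 61 and 57 of the 69 Plau UMIs in the negative libraries. Plaur, the urokinase receptor, was at 117.3 CPM (94.7 to 143.8) in leukocytes, at 72.6 and 64.5 CPM in duct and endothelial cells at injury, and at 2.19 CPM in stellate cells of the positive library. Those 93 leukocyte UMIs came from 32 of 81 cells.

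Serpine2 was restricted in a different way. It reached 207.5 CPM (182.3 to 235.2) in the Dpt and Mfap4 cells and 158.5 CPM (140.8 to 177.9) in stellate cells of the positive recovery library, and at most 11.9 CPM in any other group compared. Outside the groups compared, Serpine2 was at 74.7 CPM (61.9 to 89.4) in the 566 other cells of that library in no gate. It was at 23.0 CPM in cells of more than 1 gate. Within the stellate gate 37 of 143 cells held 81.7% of its UMIs. In 37 stellate cells of the negative injury library it was 11.3 CPM, from 5 UMIs, so the positive recovery cells were 14.0-fold (5.93 to 43.4) above them. Fraction and stage both differ there and cannot be told apart. In that pair 2 of the 8 genes passed 2-fold, with Serpine2 higher (log2 2.98) and Procr lower (log2 -1.03) on 15 and 12 UMIs, beside 9.41% of all features. F3, on 43 and 3 UMIs, stayed just inside the limit. Mesothelial cells of the negative libraries had 0 Serpine2 UMIs. Between the Dpt and Mfap4 cells and stellate cells, F3 alone passed 2-fold, at 65.2 and 23.5 CPM (ratio 2.77, 1.89 to 4.13), where 3.67% of all features did. Plat had a ratio of 2.04 (1.73 to 2.41) there, with log2 0.98.

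For the start of clotting, F3 and Tfpi had nearly opposite places. F3 was highest in mesothelial cells of the negative recovery library at 172.4 CPM (149.9 to 197.3), then in duct cells in recovery (124.7), in mesothelial cells with 0 Osr1 UMIs of the positive library (117.7, an interval that overlaps that of duct cells) and in duct cells at injury (98.3). In endothelial cells it was 1.56, 0.361 and 1.43 CPM in the 3 libraries, with an F3 UMI in 6 of 2279 cells in negative recovery and 31 of 3567 at injury. The duct marker sum in endothelial cells was 0.189% and 0.514% of its duct level in the negative recovery and injury libraries. F3 in endothelial cells was 0.290% and 1.45% of its duct level, and the part of free RNA in these F3 UMIs was not tested. Tfpi was highest in endothelial cells, at 340.3 CPM (309.1 to 373.8), 285.2 CPM (277.7 to 292.8) and 253.7 CPM (247.1 to 260.3) in positive recovery, negative recovery and negative injury. Mesothelial, stellate and Dpt and Mfap4 groups followed at 38.9 to 70.0 CPM, where each interval overlapped that of its neighbour in the order. Tfpi in mesothelial cells of the positive library was 15.9% of the endothelial level, where the endothelial marker sum was 0.189%.

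Thbd was ordered over the gates of at least 30 cells, the Osr1 groups of the positive library and the Dpt and Mfap4 cells. It was highest in endothelial cells at injury (692.4 CPM, 681.6 to 703.4), followed by the Osr1-rich mesothelial cells of the positive library (312.1 CPM, 297.2 to 327.6) and endothelial cells in recovery (304.8 CPM, 297.0 to 312.6, negative library). The intervals of the last 2 overlapped. The endothelial gates were not split in this order. Endothelial cells with 2 or more Vwf UMIs, described below, were at 646.9 CPM (negative recovery) and 870.5 CPM (negative injury). Those with 2 or more Selp UMIs were at 1038 CPM at injury. Mesothelial cells of the negative libraries were at 38.4 and 50.6 CPM, those with 0 Osr1 UMIs in the positive library at 36.2 CPM, and duct cells at 0.748 and 2.70 CPM. In duct cells Thbd was 0.245% (recovery) and 0.389% (injury) of the endothelial level, beside 0.874% and 0.691% for the endothelial marker sum. A Thbd UMI was found in 4 of 394 and 40 of 1035 duct cells, and the part of free RNA in these was not tested. Procr was ordered over the gates of at least 30 cells, the Osr1 groups of the positive library and the Dpt and Mfap4 cells. It was highest in mesothelial cells at injury (37.0 CPM, 32.0 to 42.6). From there down to 5.93 CPM in the Dpt and Mfap4 cells each interval overlapped that of its neighbour in the order. Leukocytes were at 29.0 CPM, where 2 of 81 cells held 17 of 23 UMIs. Duct cells had 1 and 11 Procr UMIs.

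Within the mesothelial gate of the positive recovery library, Osr1 separated 2 profiles of these genes. Thbd and Plat were higher and F3 was lower in the 244 cells with 3 or more Osr1 UMIs than in the 905 cells with 0, and the 143 cells with 1 or 2 lay between. Thbd was 312.1 CPM (297.2 to 327.6) against 36.2 CPM (33.2 to 39.4), a ratio of 8.62 (7.81 to 9.52), with 112.2 CPM in the middle group. Plat was 210.9 CPM (198.7 to 223.7) against 52.3 CPM (48.7 to 56.2), a ratio of 4.03 (3.67 to 4.43), with 95.6 CPM in the middle. F3 was 34.5 CPM (29.6 to 39.9) against 117.7 CPM (112.2 to 123.4), 3.41-fold (2.93 to 4.0) lower, with 87.3 CPM in the middle. Thus the receptor that turns thrombin to protein C and the fibrin-bound activator were high where tissue factor was low. Plaur (27.8 against 14.4 CPM), Tfpi (38.9 against 60.4 CPM) and Procr (25.5 against 20.2 CPM) stayed inside 2-fold, as did Plau on 8 and 2 UMIs and Serpine2 on 4 and 29 UMIs. Among all features tested 3.36% were higher and 3.59% lower. Between the middle group and cells with 0 Osr1 UMIs, Thbd alone of the 8 passed 2-fold (ratio 3.1, 2.69 to 3.57), beside 1.36% of all features.

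**Figure D3:**
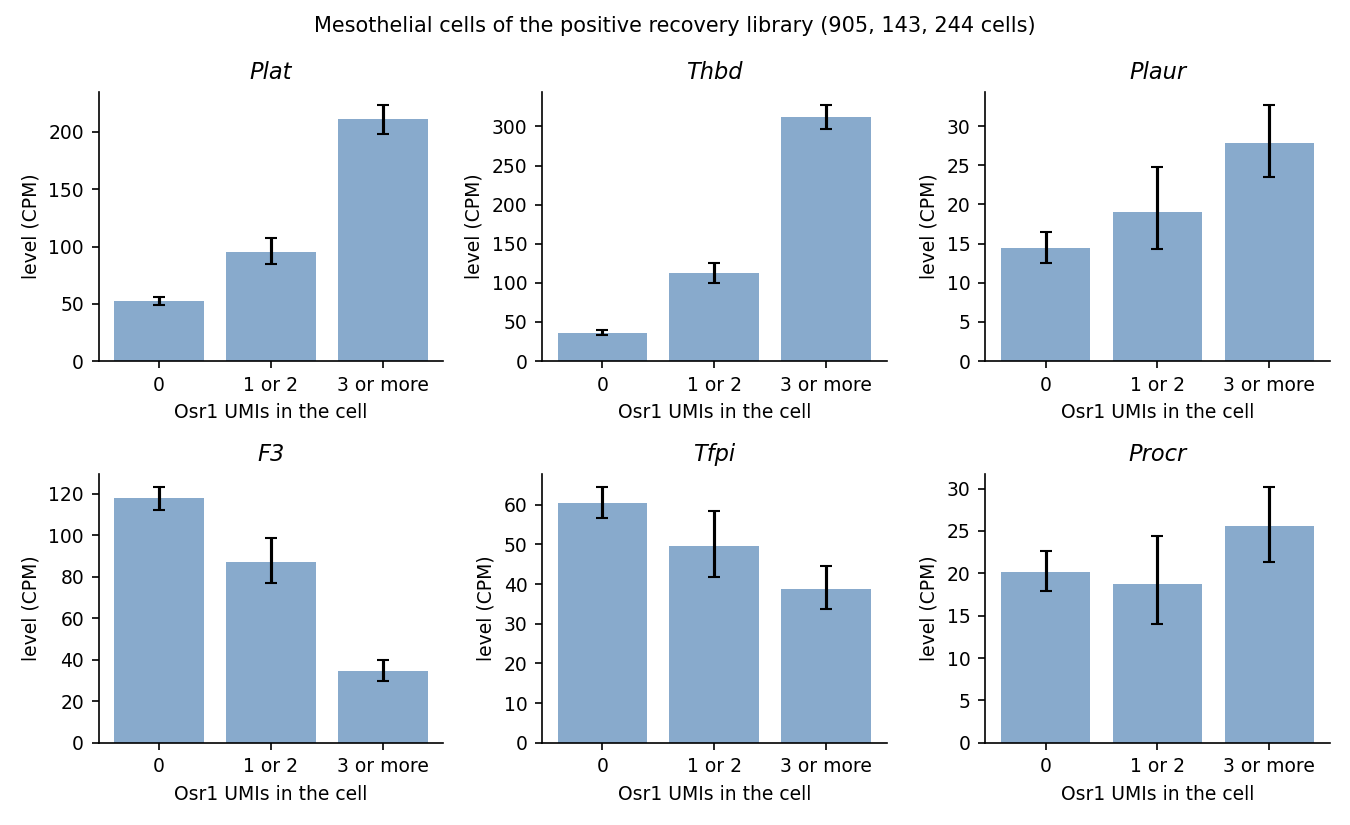
Level (CPM, bars from 0, with exact Poisson 95% intervals) of 6 genes in mesothelial cells of the positive recovery library with 0 (905 cells), 1 or 2 (143) and 3 or more (244) Osr1 UMIs. Thbd and Plat climb to 312.1 and 210.9 CPM while F3 goes down to 34.5 CPM.

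The split was also visible in shares of cells, which depend on depth. Median depths were 16899.5 and 14312 UMIs in Osr1-rich cells and cells with 0 Osr1 UMIs. Thbd was found in 88.1% and 31.8% of the 244 and 905 cells, and after thinning each cell to 2000 UMIs, which left out 0 and 95 shallower cells, in 45.5% (39.1 to 52.0) and 6.05% (4.51 to 7.92), with exact Clopper-Pearson 95% intervals. Plat was found in 89.8% and 41.0% of cells, and thinned in 33.2% (27.3 to 39.5) and 9.63% (7.69 to 11.9). F3 was found in 40.2% and 60.2%, and thinned in 5.33% (2.87 to 8.94) and 21.6% (18.8 to 24.6). In the same cells 7 sinusoidal markers summed to 25.5 and 22.0 CPM, and Ptprb was 4.6 and 1.7 CPM. The 5 vascular markers summed to 716.6 and 260.8 CPM. Fibroblast markers were 13682 and 8222 CPM and mesothelial markers 2820 and 4395 CPM, and the part of these mixtures in the result was not tested.

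Among other genes of the pathway, taken from lists of 44 symbols, the Osr1-rich cells were higher for Serpinb2 (plasminogen activator inhibitor 2) at 45.0 against 0.341 CPM. Of 12 plasminogen system genes 7 reached a mean of 10 CPM, and 2 of these were higher and 0 lower. Pros1, protein S, the cofactor of activated protein C, was higher at 32.2 against 6.34 CPM. Of 12 anticoagulant genes 4 reached a mean of 10 CPM, with 1 higher and 0 lower. At a mean of 10 CPM or more, the median log2 ratio was 0.43 over 6 of the 8 genes and 0.52 over the 7 plasminogen system genes. It was -0.01 over all features at that limit. With genes under the limit included, the medians were 0.21 over the 8 genes and 0.04 over the 12 plasminogen system genes. None of the 16 coagulation factors or 4 protease receptors reached a mean of 10 CPM over the Osr1-rich cells and those with 0 Osr1 UMIs.

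Mesothelial cells with 0 Osr1 UMIs could be set side by side in the 2 fractions in recovery. Thbd was 36.2 CPM in 905 positive and 38.3 CPM in 66 negative cells, a ratio of 0.945 (0.698 to 1.31). Plat was 52.3 and 51.7 CPM, a ratio of 1.01 (0.781 to 1.33), and F3 117.7 and 175.0 CPM, a ratio of 0.673 (0.583 to 0.780). None of the 8 genes passed 2-fold there, beside 0.345% of all features. Over all mesothelial cells, Thbd was the 1 gene past 2-fold, at 109.4 CPM in the positive and 38.4 CPM in the negative library (ratio 2.85, 2.14 to 3.89), where 1.19% of all features were higher and 0.0945% lower. Plat (94.3 against 53.1 CPM) and F3 (94.7 against 172.4 CPM) had log2 ratios of 0.73 and -0.80. Plaur was 18.1 against 20.4 CPM, Procr 21.2 against 13.9 CPM and Tfpi 54.1 against 48.2 CPM, and Plau and Serpine2 had 0 UMIs in the 68 negative cells. On thinning F3 passed 2-fold as lower in the positive library (log2 -1.15). Of the 68 negative mesothelial cells, 2 had Osr1 and 0 had 3 or more UMIs of it. At injury, where the negative library held 12 such cells, Thbd was 70.9 CPM (42.7 to 110.7), Plat 41.1 CPM (20.5 to 73.5) and F3 123.2 CPM (84.8 to 173.0). In the 218 injury cells with 0 Osr1 UMIs the levels were 46.7, 32.7 and 61.9 CPM (54.8 to 69.7 for F3). F3 was thus at a larger value in the 12 cells, opposite to its direction in the positive recovery library. In 29 injury cells with 1 or 2 Osr1 UMIs F3 was 35.4 CPM (22.2 to 53.6). Both groups are below the cell limit for comparison, so the values are descriptions and the Osr1 split was not tested at injury.

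Endothelial cells were also compared between fractions. In recovery, 147 endothelial cells of the positive and 2279 of the negative library had Thbd at 259.9 CPM (232.8 to 289.4) and 304.8 CPM (297.0 to 312.6) and Tfpi at 340.3 and 285.2 CPM. None of the 8 genes was higher or lower by 2-fold, as were 0.248% and 0.0826% of all features. The other 6 genes (Plat, Plau, Plaur, Serpine2, Procr and F3) had at most 10 UMIs each in the positive cells and a mean under 10 CPM over both fractions.

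Between stages in the negative fraction, Plaur was the 1 gene past 2-fold over whole libraries, at 12 CPM (10.8 to 13.4) in recovery and 62.2 CPM at injury, 5.17-fold (4.61 to 5.82) higher at injury. Thbd was 222.1 and 344.4 CPM, Tfpi 211.1 and 140.8 CPM, Procr 8.10 and 19.5 CPM, Plat 6.30 and 16.2 CPM, F3 35.2 and 42.9 CPM, Serpine2 1.39 and 4.60 CPM, and Plau 2.24 and 1.42 CPM. Of the 8 genes 6 reached a mean of 10 CPM. Of all features 1.6% were higher and 3.19% lower in recovery. Cell shares moved as well, with endothelial cells at 2279 of 2955 in recovery and 3567 of 5448 at injury.

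In endothelial cells Thbd and the urokinase receptor gene Plaur were higher at injury. Thbd was 692.4 CPM at injury and 304.8 CPM in recovery, a ratio of 2.27 (2.20 to 2.34). Plaur was 64.5 CPM (61.2 to 67.9) and 7.90 CPM (6.70 to 9.26), a ratio of 8.17 (6.91 to 9.71). It was found in 921 of 3567 and 138 of 2279 cells, or in 10.6% and 1.26% after thinning. Of the 8 genes 4 reached a mean of 10 CPM. Thbd and Plaur were lower in recovery and 0 genes were higher, beside 2.79% and 0.766% of all features. Procr was 25.6 and 9.71 CPM, a ratio of 2.64 (2.24 to 3.13), but its log2 ratio after 10 CPM was added was -0.85 for recovery over injury, and -1.32 with 1 CPM added. At injury 42 cells with 3 or more Procr UMIs held 53.7% of its UMIs. Tfpi did not follow, at 253.7 and 285.2 CPM (log2 0.16, and -0.02 with TMM scaling). Plat (6.61 and 3.98 CPM), Plau (2.55 and 3.1 CPM), F3 (1.43 and 0.361 CPM) and Serpine2 (0.491 and 0.103 CPM) were low at both stages. Of the pathway lists Gas6, a growth-arrest protein of the protein S family, was higher in recovery at 373.6 against 141.5 CPM. It stood in the list named anticoagulants, which does not show an anticoagulant effect of Gas6. Of 12 genes in that list 6 reached a mean of 10 CPM, and Gas6 alone passed 2-fold. Of 12 plasminogen system genes 3 reached it, and 0 passed 2-fold. Sinusoidal markers were 12100 CPM in recovery and 9291 CPM at injury, and their part in these results was not tested.

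**Figure D4:**
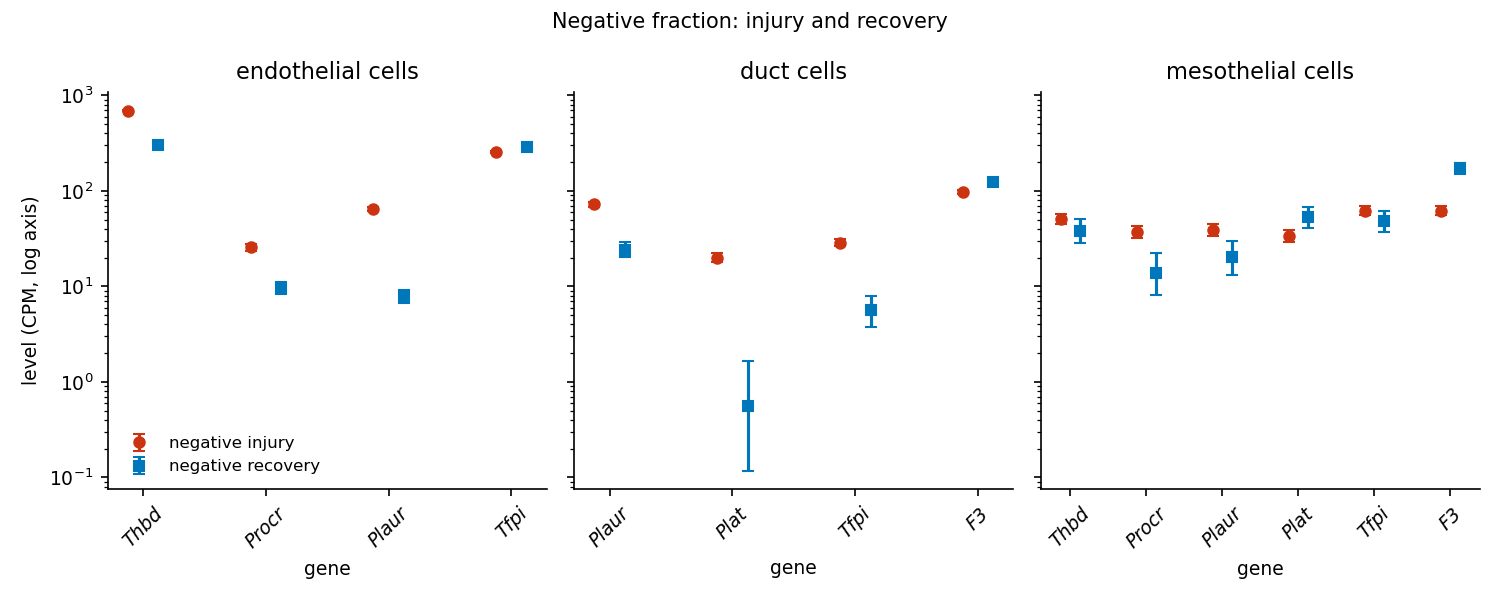
Level (CPM, log axis, with exact Poisson 95% intervals) at injury (circles) and in recovery (squares) in endothelial, duct and mesothelial cells of the negative fraction. The genes shown in a panel had a mean of at least 10 CPM over both stages in that gate. Plaur lies higher at injury in each panel, and F3 lies higher in recovery in mesothelial cells (172.4 against 61.9 CPM).

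The endothelial gate mixes sinusoidal cells with cells of larger vessels, so it was split by Vwf, the von Willebrand factor gene of vascular endothelium. In recovery the 168 cells with 2 or more Vwf UMIs had more Plat, Thbd and Procr and less Tfpi than the 2054 with 0. Plat was 27.8 CPM (21 to 36) against 0.833 CPM (0.456 to 1.40), from 56 and 14 UMIs. Thbd was 646.9 CPM (612.3 to 683.0) against 250.3 CPM (242.8 to 258.0), and Procr 34.7 CPM (27.1 to 43.8) against 6.61 CPM (5.43 to 7.96). Tfpi was 115.5 CPM (101.1 to 131.3) against 307.7 CPM (299.4 to 316.2). Of the 8 genes 4 reached a mean of 10 CPM. So 3 genes were higher and 1 lower, beside 4.22% and 3.96% of all features. Plaur was 7.44 and 8.03 CPM, and Plau 7.93 and 2.56 CPM, while F3 had 0 and 5 UMIs and Serpine2 0 and 2. Of the lists, Entpd1, the ectonucleotidase that removes platelet-activating ADP, was higher at 286.5 against 4.23 CPM. S100a10, Anxa2 and Anxa3 had log2 ratios of 1.38, 1.37 and 1.34. Of 12 plasminogen system genes 3 reached a mean of 10 CPM, with 2 higher and 0 lower. Of 12 anticoagulant genes 6 reached it, with 2 higher and 0 lower. S100a10 and Anxa2 form a cell-surface binding site for plasminogen and Plat. Sinusoidal markers summed to 5164 CPM with Vwf and 13001 CPM without.

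At injury the same split kept Plat and Tfpi past 2-fold, and not Thbd or Procr. Plat was 49.7 CPM (40.4 to 60.5) in 263 cells with Vwf against 2.27 CPM (1.64 to 3.06) in 3087 without, and 22 of the 263 cells had a Plat UMI. Tfpi was 122.1 against 269.5 CPM, with a log2 ratio of -1.08 that came inside 2-fold on thinning (-0.89) and with a limit of 1 Vwf UMI (-0.66). Serpine2 had 10 UMIs against 1, F3 had 2 against 29, Plau was 4.02 against 2.48 CPM and Plaur 43.2 against 67.4 CPM. Thbd was 870.5 against 653.9 CPM and Procr 40.7 against 22.8 CPM, with log2 ratios of 0.41 and 0.63. Of the 8 genes 5 reached a mean of 10 CPM. All features past 2-fold were 2.25% higher and 0.989% lower. Entpd1 was again higher, at 168.3 against 17.1 CPM. The stages were then compared within each side of the split. In cells without Vwf, injury over recovery was 2.61 (2.52 to 2.71) for Thbd, 8.38 (7.02 to 10.1) for Plaur and 3.45 (2.80 to 4.29) for Procr, and Thbd and Plaur passed 2-fold, beside 3.73% of all features. In cells with Vwf the ratios were 1.35 (1.25 to 1.45), 5.81 (3.33 to 10.8) and 1.17 (0.841 to 1.64), and Plaur alone passed 2-fold, beside 4.84% of all features. The difference between these ratios was not tested.

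**Figure D5:**
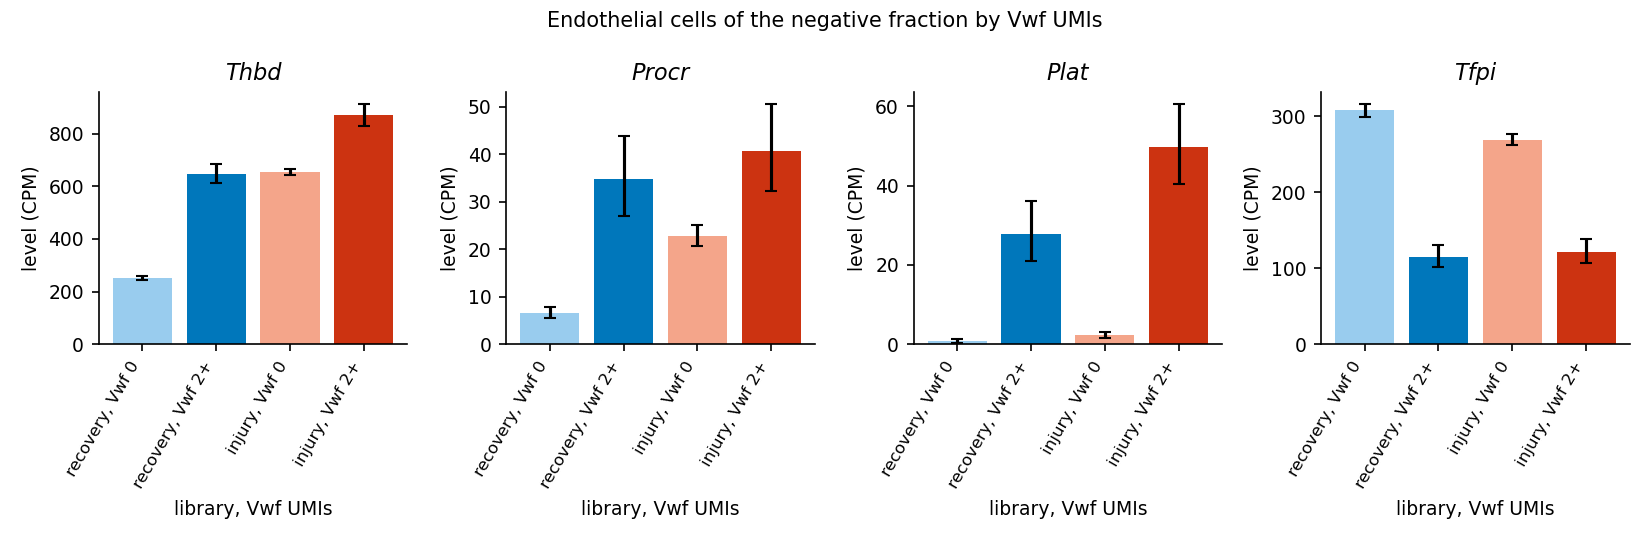
Level (CPM, bars from 0, with exact Poisson 95% intervals) of Thbd, Procr, Plat and Tfpi in endothelial cells of the negative libraries with 0 or with 2 or more Vwf UMIs, in recovery and at injury. Tfpi is lower with Vwf at both stages (115.5 and 122.1 CPM), and Plat is higher (27.8 and 49.7 CPM).

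P-selectin (Selp), an adhesion receptor of activated endothelium, gave a further split at injury, added after the levels were seen. In 1029 cells with 2 or more Selp UMIs Procr was 54.8 CPM against 8.95 CPM in 2121 cells with 0, a ratio of 6.12 (4.94 to 7.64). Thbd was 1038 against 484.6 CPM, a ratio of 2.14 (2.07 to 2.22). These 2 of the 8 genes passed 2-fold, beside 0.995% of all features. Plaur was 89.7 against 46.4 CPM (ratio 1.93, 1.72 to 2.16), and Tfpi 224.8 against 272.7 CPM. Plat was 11.7 against 3.68 CPM, Plau 4.12 against 1.76 CPM and F3 1.41 against 1.34 CPM, and Serpine2 had 11 UMIs against 0. Vascular markers were 1004 and 576.7 CPM in these cells and sinusoidal markers 7893 and 10144 CPM.

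In duct cells 4 of the 8 genes reached a mean of 10 CPM. Plat, Plaur and Tfpi were lower in recovery than at injury and 0 of the 8 were higher, beside 1.97% and 0.822% of all features. Plat had 3 UMIs in 394 duct cells in recovery (0.561 CPM, 0.116 to 1.64) and 320 UMIs in 1035 cells at injury (20.1 CPM, 17.9 to 22.4), a ratio of 35.8 (12.1 to 174) for injury. It was uneven within the injury cells: 122 had a UMI, and 33 cells with 3 or more held 203 of the 320. Plaur was 72.6 CPM (68.5 to 76.9) at injury and 24.3 CPM (20.3 to 28.8) in recovery, a ratio of 2.99 (2.49 to 3.61), found in 465 of 1035 and 78 of 394 cells. Tfpi was 28.8 CPM (26.2 to 31.5) and 5.61 CPM (3.78 to 8.0), a ratio of 5.13 (3.55 to 7.70), and 32 injury cells held 267 of its 459 UMIs. With cells of several gates kept, Tfpi came inside 2-fold (log2 -0.72). Tfpi in duct cells at injury was 11.3% of the endothelial level, where endothelial markers were 0.691%; in recovery these values were 1.97% and 0.874%. F3, the tissue factor gene of these cells, was 98.3 CPM at injury and 124.7 CPM in recovery, a ratio of 1.27 (1.16 to 1.39) for recovery, and found in 578 of 1035 and 240 of 394 cells. Serpine2 was 11.9 and 5.42 CPM and Thbd 2.70 and 0.748 CPM, and Procr had 11 and 1 and Plau 6 and 1 UMIs. Duct markers summed to 3218 and 3229 CPM, and median depths were 14917 and 11240.5 UMIs. In the lists Fgb, the fibrinogen beta chain, was higher at injury at 39.6 against 3.92 CPM. Of 16 coagulation factors 3 reached a mean of 10 CPM, and Fgb alone of these passed 2-fold. Hepatocyte markers in the same cells were 10069 and 6950 CPM, and the part of free hepatocyte RNA in Fgb was not tested.

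Mesothelial cells of the negative fraction had F3 lower and Procr and Plaur at larger values at injury. F3 was 61.9 CPM (55.4 to 69.0) in 259 cells at injury and 172.4 CPM (149.9 to 197.3) in 68 cells in recovery, a ratio of 2.78 (2.33 to 3.32) for recovery. It was found in 126 of 259 and 53 of 68 cells, or in 11% and 30.9% after thinning. Of the 8 genes 6 reached a mean of 10 CPM. F3 was the 1 gene higher in recovery and 0 were lower, beside 2.58% and 2.66% of all features. Procr was 37.0 CPM at injury and 13.9 CPM in recovery on 17 UMIs, with a log2 ratio of -0.98 for recovery over injury and -1.10 with TMM scaling. Plaur was 39.3 and 20.4 CPM, Plat 33.8 and 53.1 CPM, Thbd 50.6 and 38.4 CPM, and Tfpi 62.1 and 48.2 CPM. Plau had 1 and 0 UMIs and Serpine2 0 at both stages. Of 12 plasminogen system genes 6 reached a mean of 10 CPM, and 1 of these was higher in recovery and 1 lower. Mrc2, a collagen receptor that associates with Plaur, was the higher one (29.4 against 8.31 CPM). Mesothelial markers were 4055 and 4541 CPM at injury and in recovery.

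The genes with the most similar pattern were sought over the 11 groups of the 5 gates with at least 30 cells. The 3 libraries share these groups, so the Pearson coefficients of log2 levels are given as descriptions. Plat was nearest to Tpm2 (0.97), Plaur to Hp (0.94), Serpine2 to Kdelr3 (0.96), Thbd to Gpr146 (0.97), Procr to Gbp5 (0.97), F3 to Cys1 (0.99) and Tfpi to Fem1b (0.96). Plau had too few UMIs for such a comparison.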

How the data were processed

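Single-cell RNA libraries were made with the 10x Genomics 3' v2 protocol after digestion with 14 mg Pronase and 3.7 U Collagenase per mouse, per the labels' protocols. The deposited matrices hold UMI counts per gene and cell barcode, written by software version 3.1.0, per the file headers. The submitters' processing notes name fastp, featureCounts 1.6.2 and the builds mm10 and GRCh38. For strand and cell calling the settings were not given in the sources used here. No deposited barcode had fewer than 500 UMIs.

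Barcodes were dropped below 500 UMIs or 300 genes or above 20% mitochondrial UMIs. A gate needed at least 1 UMI of each marker of its pair and 3 of the pair. Cells in more than 1 gate (135 in positive recovery, 51 in negative recovery, 132 in negative injury) were left out, which is how doublets were treated, and no doublet caller was run. Counts were summed per library and gate and scaled to CPM. Ratios were taken on the log2 scale with 10 CPM added to each level, and features with a mean of at least 10 CPM gave the shares of all features. A count of 0 was given a limit of 3 counts. Thinning drew 2000 UMIs per cell (seed 7). Tools were numpy 2.4.6, scipy 1.17.1 and pandas 2.3.3, and edgeR 4.0.16 gave TMM factors for an alternative. The summing and ratios were tested on simulated data. Cells are not replicates, and with 1 library per group no test was run.

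The 8 genes, the gates, the 4 pathway lists (plasminogen system, coagulation factors, anticoagulants, protease receptors) and the 10 marker lists were chosen with earlier results of these data known. The Dpt and Mfap4 group, the Selp split and the comparisons within Vwf and Osr1 groups were added after the levels were seen. All 8 genes are named in each of the 10 comparisons, and those past 2-fold in the added ones. List genes are named when they differed by at least 2-fold at a mean of 10 CPM or more, with at most 6 per comparison, except 1 gene that is not reported here. Alternatives changed the added CPM (1 or 50), the scaling, the gates, the mitochondrial limit, the deepest 5% of cells, the depth and the Osr1 and Vwf limits. Names and coordinates came from the files and GENCODE M21.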

Additional observations from a re-analysis of the deposited data

Results flagged for a closer look

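Effects of stage with opposite signs in 2 cell types of the negative fraction drew attention, on log2 ratios of recovery over injury. For Plat the ratio was -1.51 in duct cells (3 and 320 UMIs) and 0.53 in mesothelial cells (65 and 179 UMIs). For Tfpi it was -1.31 in duct cells and 0.16 in endothelial cells, where TMM scaling gave -0.02. Each rests on 1 library per stage, and the difference between cell types was not tested.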

How the results depend on the processing

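Of 80 values (8 genes in 10 comparisons) 21 passed 2-fold, and 0 values past 2-fold changed sign under any alternative run. All 21 still passed with 1 CPM added (14 more did), at 10% mitochondrial UMIs and without the deepest 5% of cells. TMM scaling and thinning each left 20, and adding 50 CPM left 7, which shrinks low genes most. Of the 16 gated ones 16 passed with 2 UMIs of each marker and 15 with cells of several gates kept. Osr1 at 5 or more left 3 of 3, and Vwf at 1 or more 5 of 6. With 1 CPM added the genes past 2-fold became 4 higher for positive over negative recovery (2 as reported), 4 lower for recovery over injury in whole libraries (1), 5 lower in duct cells (3), 1 lower in mesothelial cells (0), 1 higher for positive over negative endothelial cells (0), 2 higher for mesothelial cells (1) and 2 higher for Vwf at injury (1). The other 3 new calls were Procr in endothelial cells between stages and Plau in the Osr1 split and in the Vwf split in recovery. With 50 CPM added they became 1 higher and 1 lower (2 and 2) between fractions, 0 lower between stages in whole libraries (1), 0 lower for Osr1 (1), 1 lower in endothelial (2) and 0 lower in duct cells (3), 0 higher in mesothelial cells between stages (1) or fractions (1), 1 higher for Vwf in recovery (3), and 0 higher and 0 lower for Vwf at injury (1 and 1). TMM scaling gave 1 lower between fractions, with Thbd at -0.89. Mesothelial cells between stages had 1 lower with TMM scaling, the stricter gate or several gates kept (Procr) and with thinning (Thbd). Keeping several gates took Tfpi in duct cells inside 2-fold and gave 2 higher (Plat and F3) for endothelial cells between fractions, thinning gave 1 lower (F3) for mesothelial cells between fractions, and Tfpi in the Vwf split at injury left the count (0 lower) on thinning and with Vwf at 1 or more. The cause of these shifts was not tested. TMM scaling moved the recovery over injury log2 ratios by -0.13 to -0.19 and those between fractions in whole libraries by 0.16. Without the limit of 10 CPM the shares of all features past 2-fold were 0.0486% to 5.13%. No paired analysis was possible because each group has 1 library and the labels give no replicate numbers. Depth limits Plau, with at most 69 UMIs in a library, and the groups with under 20 UMIs of a gene.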

Other observations

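Genes of the pathway lists also differed between whole libraries, whose shares of cell types differ. Between positive and negative recovery, Lrp1 (312.8 against 22.9 CPM) and Mrc2 (48.2 against 2.09 CPM) were higher in the positive library, and F8 (55.4 against 615.1 CPM), Vwf (4.17 against 125.1 CPM), Proc (2.99 against 77.3 CPM) and Hpn (2.54 against 59.1 CPM) were lower. Lrp1 is the endocytic receptor that clears activator and inhibitor complexes, and F8 and Vwf are products of endothelial cells. Between negative recovery and injury, Fgb (6.19 against 137.4 CPM), Fga (23.3 against 111.9 CPM), Fgg (34.5 against 120.1 CPM), Kng1 (2.27 against 30.1 CPM) and Serpina10 (13.4 against 46.2 CPM) were lower in recovery. Fibrinogen chains, Kng1 and Serpina10 are hepatocyte products, and 6 hepatocyte markers summed to 1692 CPM in recovery and 5525 CPM at injury.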
